A study of Mus musculus with 189 samples.

Results

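Mll1, Mll2, Setd1a, Setd1b and Ash2l encode subunits of the complexes that methylate lysine 4 of histone H3, and they were followed here through mouse preimplantation development. These 5 genes were chosen by name from a panel of 192 quantitative PCR assays, not by their measured values. Earlier results of these data were known when they were chosen. In the quality control of the study 36 assays failed, and all 5 were among those that passed. A further 6 H3K4 methyltransferase or complex genes and 8 H3K4 demethylases that passed served as the pathway around them.

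Methylated H3K4 marks promoters and enhancers of active genes. In mammals it is written by large complexes, each built around 1 catalytic SET domain protein of the MLL or SETD1 type. Ash2l belongs to the core subunits that these complexes share and that the catalytic proteins need for full activity.

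The study measured oocytes, single or pooled blastomeres and whole embryos of the mouse before implantation by microfluidic RT-qPCR. Oocytes came from superovulated F1 (C57BL/6 x DBA/2) females, embryos from such females mated with C57BL6 males, and embryos were kept in culture under low oxygen. The 168 samples compared here were 11 MII oocytes, 14 zygotes, 21 samples of the 2-cell stage, 7 of the 3-cell, 12 of the 4-cell, 27 of the 8-cell, 26 of the 16-cell and 50 of the 32-cell stage. They were averaged to 58 units, 1 per oocyte or embryo with 1 exception given below, and these, not the blastomeres, were the units of all tests. No sample received a treatment, and no gene was altered. The 26 samples of the 16-cell stage came from only 2 embryos, embryo 4 and embryo 5, and their source label reads blastocyst although their stage label gives the 16-cell morula. Of the 2-cell blastomeres 11 carry no embryo name and were averaged to 1 unit, which therefore spans several embryos. Whole embryos, 3 each of the 2-, 4-, 8-, 16- and 32-cell stages, gave a second comparison. It shares 9 of its 15 embryos with the first, namely all those of the 2-, 4- and 8-cell stages. RNA of embryonic stem cells (ESCs) was measured in 10 reactions.

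All levels are log2 values: the cycle threshold (Ct) was subtracted from 30, and the mean of the same quantity for the control genes Hnrnpr, Ssu72 and Ube2e1 was then subtracted. A difference of 1 is 1 PCR cycle, and a change is a change relative to these control genes. Without detection the Ct is 30, so the value is a floor that moves with the control genes of that sample. The control genes averaged a Ct of 12.9 in MII oocytes and in zygotes, 16.5 in 2-cell and 17.5 in 32-cell samples. Between 7 and 44 genes were undetected in a sample. Stage markers differed in how far they followed the labels. The mean level of Dazl, a germ cell RNA-binding protein, was 3.49 in MII oocytes and −10.88 at the 32-cell stage. The pluripotency factor Nanog went from −17.1, a floor value, to 0.77. These 2 were chosen after their values were seen. Other markers changed less between the same stages, as Sox2 went from −3.91 to −2.58 and Gata3 from −6.50 to −5.87. Since assays differ in efficiency, levels of different genes are not ranked against each other. In whole embryos and pools, fewer expressing cells and less RNA per cell cannot be told apart.

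The name Mll2 has been given to 2 mouse genes, now Kmt2b and Kmt2d. The assay annotation of the study places the Mll2 assay on chromosome 15, where Kmt2d lies (GRCm38.p6, chr15:98831669-98874077), whereas the text of the study treats Mll2 as the paralog Kmt2b, which lies on chromosome 7 (chr7:30568855-30589056). The name Mll2 is kept here for the assay. Mll1 is now Kmt2a (chr9:44803355-44881352), Setd1a lies at chr7:127777389-127800122, Setd1b at chr5:123142040-123168630 and Ash2l at chr8:25816000-25847694.

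Stretches before an annotated start are shown for the 3 of the 5 genes with an entry in the promoter table used here. Setd1b and Ash2l had none. Mll2 and Setd1a followed the most similar courses of any pair of the 5 genes, while Mll1 took another course, as described below. Each stretch is the RefSeq sequence (GRCm38.p6) of the 250 bases before the start that this promoter table gives for the gene. It is printed 5′ to 3′ on the strand of the gene, with CG dinucleotides in capitals. The windows are chr9:44881290-44881539 (minus strand) for Mll1, chr15:98871206-98871455 (minus strand) for Kmt2d, the gene at the annotated position of the Mll2 assay, and chr7:127777139-127777388 (plus strand) for Setd1a. The start in that table need not be the outer end of the gene: all 250 bases of the Kmt2d window and 63 of the Mll1 window lie inside the gene coordinates given above, and 0 of the Setd1a window.
Mll1 (Kmt2a): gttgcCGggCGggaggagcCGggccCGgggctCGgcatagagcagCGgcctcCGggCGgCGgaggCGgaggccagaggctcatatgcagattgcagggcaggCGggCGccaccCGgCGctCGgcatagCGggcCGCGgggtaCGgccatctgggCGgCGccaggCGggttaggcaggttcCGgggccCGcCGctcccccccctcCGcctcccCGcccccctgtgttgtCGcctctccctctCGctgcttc
Mll2 (Kmt2d): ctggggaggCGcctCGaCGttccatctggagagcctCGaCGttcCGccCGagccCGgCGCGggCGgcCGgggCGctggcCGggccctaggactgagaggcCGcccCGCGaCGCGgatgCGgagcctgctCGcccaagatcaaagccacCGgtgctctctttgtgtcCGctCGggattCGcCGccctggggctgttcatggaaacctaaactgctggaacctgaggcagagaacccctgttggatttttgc
Setd1a: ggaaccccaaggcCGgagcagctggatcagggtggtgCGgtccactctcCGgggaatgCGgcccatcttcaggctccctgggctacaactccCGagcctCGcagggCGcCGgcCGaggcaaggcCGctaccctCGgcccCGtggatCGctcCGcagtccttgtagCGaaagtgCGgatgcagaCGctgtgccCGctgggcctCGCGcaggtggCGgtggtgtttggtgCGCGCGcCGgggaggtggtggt
The window of Mll1 holds 29 CG dinucleotides, that of Kmt2d 26 and that of Setd1a 25. The median over 32851 such windows of the mouse genome is 6, and the 3 windows hold more than 93.2%, 90.4% and 89.3% of them. The GC box GGGCGG, searched on both strands with overlaps counted, occurs 4 times in the window of Mll1, 4 times in that of Kmt2d and 0 times in that of Setd1a, and 32.7% of all windows hold at least 1. These are descriptions of letters, and the courses of the transcripts were not tested against them.

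Mll1, the founding member of the family and a regulator of Hox genes, changed most. In the 11 MII oocytes its level ranged from −8.34 to −3.05 with a median of −6.23, and in the 14 zygotes from −7.56 to −3.28 with a median of −5.87. It was detected in every oocyte and zygote, and the groups overlapped. The difference between zygotes and MII oocytes was 0.58 (95% interval −1.35 to 2.51, adjusted p = 0.765, limma). At this step 0 of the 5 genes passed the test, against 1.92% of all genes that passed quality control.

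From the 2-cell to the 8-cell stage, Mll1 dropped out of most single blastomeres. It was detected in 11 of 18 samples labelled as blastomeres of the 2-cell stage, 3 of which have titles that name an embryo and no blastomere, in 3 of 7 of the 3-cell stage, in 2 of 9 of the 4-cell stage and in 3 of 24 of the 8-cell stage. In whole embryos, which bring more RNA into a reaction, it was detected in 3 of 3 2-cell, 3 of 3 4-cell and 2 of 3 8-cell embryos. Detected and undetected samples were clearly apart, as the highest Ct of a detected sample was 25.5 and 0 of 189 samples lay between this value and 30. Where Mll1 was detected, whole embryos included, its mean level was −5.07 (2-cell), −5.84 (4-cell) and −6.96 (8-cell). In the detected blastomere samples alone it was −4.78, −4.96 and −5.75, and in the detected whole embryos −6.13, −6.43 and −8.78. The control genes of 8-cell blastomeres had a mean Ct of 15.21, a stronger signal than the 17.54 of 32-cell samples, in all of which Mll1 was detected.

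**Figure D1:**
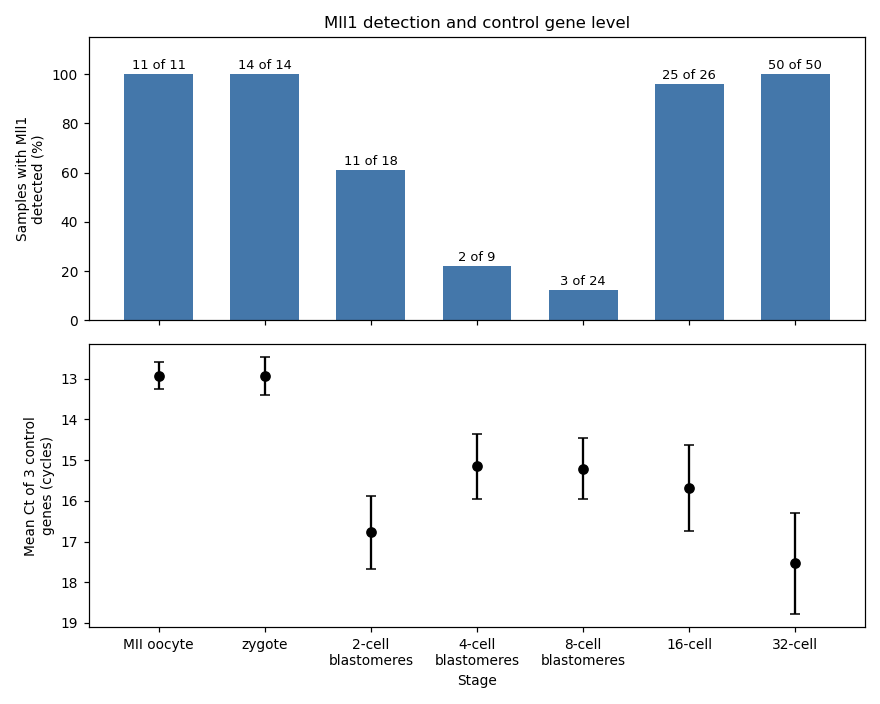
Percentage of samples with detected Mll1 (upper y axis, bars, with counts) and mean Ct of the 3 control genes in cycles with SD (lower y axis, points, inverted so that more RNA is higher) by stage, with blastomere samples alone at the 2-, 4- and 8-cell stages. Mll1 was detected in 3 of 24 blastomere samples of the 8-cell stage, at a control Ct of 15.21, and in 50 of 50 samples of the 32-cell stage, at a control Ct of 17.54.

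The level of Mll1 ranged from −13.74 to −2.53 over the 21 samples of the 2-cell stage with a median of −5.83, from −15.92 to −4.10 over the 12 samples of the 4-cell stage with a median of −14.29, and from −17.46 to −5.27 over the 27 samples of the 8-cell stage with a median of −14.50. The last 2 medians are floor values. Between the 4-cell and 8-cell stages Mll1 fell by 3.39 (SE 1.33, adjusted p = 0.0294, limma), where 49.4% of all genes passed in either direction. The units of the stages overlapped, and with all values below −10 set to −10 the difference was −1.73 and no longer passed (adjusted p = 0.0575). The difference of −2.59 between the 2-cell and 4-cell stages did not pass (adjusted p = 0.120).

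The 3-cell stage, 7 samples of 3 embryos, entered no comparison. Its embryos had mean levels of −12.03 for Mll1, 1.70 for Mll2, 0.85 for Setd1a, −2.54 for Setd1b and −1.07 for Ash2l. One of its blastomeres had the lowest Setd1a of all 168 samples, −3.71, and a Setd1b of −5.95.

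Mll1 returned at the 16-cell stage, where it was detected in 25 of 26 samples with values from −15.47 to −1.31 and a median of −2.57. The rise over the 8-cell stage was 9.11 (SE 1.91, adjusted p = 0.000249, limma), and the 2 embryos, with means of −4.98 and −2.61, lay above every 8-cell unit. With values below −10 set to −10 the rise was 5.80 (adjusted p = 6.63e-05), so its size depends on how undetected blastomeres are scored, while its direction does not. Whole embryos gave a rise of 8.62 (SE 1.81, adjusted p = 0.00468), from −7.93, −17.46 and −9.63 in the 3 whole 8-cell embryos to −3.60, −3.26 and −2.32 in the 3 of the 16-cell stage. The 2 sets did not overlap, and −17.46 is a sample without detected Mll1.

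The spread of Mll1 among cells of 1 embryo was wider in both 16-cell embryos than in any of the 32-cell stage. Of the 26 samples 20 lay at −5 or above and 6 below, of which 5 came from embryo 5 and 1 from embryo 4. Within an embryo the SD was 1.61 in embryo 4 and 4.07 in embryo 5, against a median of 0.43 (0.29 to 0.76) in the 7 embryos of the 32-cell stage. The sample with the most undetected genes, 44, belongs to this stage, and Mll1 was detected in it. With 2 embryos against 7, and with 1 undetected sample in the spread of embryo 5, the difference in spread was not tested.

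At the 32-cell stage Mll1 was detected in 50 of 50 samples, from −1.09 to 1.60 with a median of 0.23. Every embryo of this stage lay above both 16-cell embryos, but the difference of 4.15 (SE 1.91) did not pass with 2 embryos in 1 group (adjusted p = 0.187), where 10.9% of all genes passed. With values below −10 set to −10 it was 3.94 and passed (adjusted p = 0.00872). Whole embryos held −0.58, −0.33 and −0.07 at this stage, each above the whole 16-cell embryos, and the difference of 2.73 did not pass (adjusted p = 0.286).

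**Figure D2:**
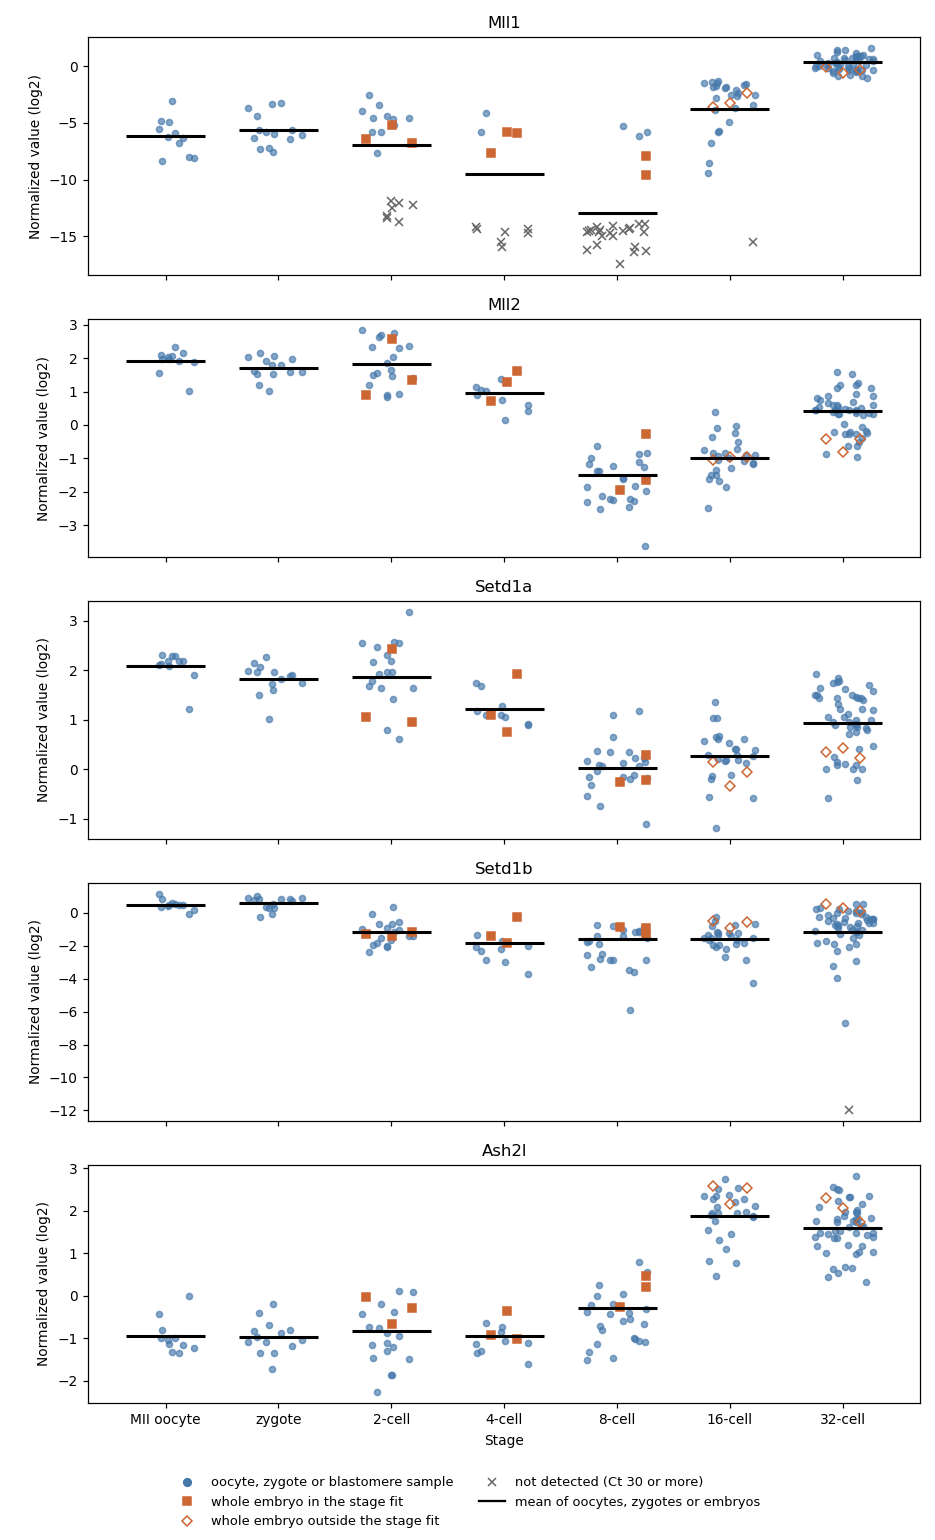
Log2 levels relative to the mean of Hnrnpr, Ssu72 and Ube2e1 (y axis) of the 5 genes by stage (x axis), with a point per oocyte, zygote or blastomere sample, squares and open diamonds for whole embryos inside and outside the stage comparison, crosses for samples without detection and black lines for the means of oocytes, zygotes or embryos. Mll1 is detected in 3 of 24 blastomere samples of the 8-cell stage and lies between −1.09 and 1.60 at the 32-cell stage, Mll2 and Setd1a are lowest at the 8-cell stage, the mean of Setd1b is lower from the 2-cell stage on, except in whole 32-cell embryos, which lie in the range of oocytes, and that of Ash2l is higher from the 16-cell stage on (on this scale; on the deposited scale Ash2l was lower in late embryos than in oocytes, −0.96).

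Mll2 was present from the oocyte on and was detected in all 168 samples. Its level ranged from 1.02 to 2.33 in MII oocytes (median 1.96), from 1.03 to 2.16 in zygotes (median 1.69) and from 0.83 to 2.85 at the 2-cell stage (median 1.63). These groups overlapped, and the differences of −0.21 (adjusted p = 0.714) and 0.11 (adjusted p = 0.643, limma) did not pass. At the 4-cell stage the values ran from 0.14 to 1.61 with a median of 0.96. This was a fall of 0.84 (SE 0.26, adjusted p = 0.0107), where 32.7% of all genes passed and the median gene changed by −0.43. Without Ube2e1 among the control genes it was −0.65 and did not pass (adjusted p = 0.0547), and on the raw Ct scale it was 0.44, where the median gene was at 0.85.

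The main fall of Mll2 came next. Its 27 values at the 8-cell stage ran from −3.63 to −0.26 with a median of −1.64, so that the highest of them lay below the lowest of the 4-cell stage. The difference was −2.48 (SE 0.26, adjusted p = 2.84e-11, limma), against a median of −0.51 over all genes. The whole 4- and 8-cell embryos are part of these values, so their comparison is no independent repeat. Fitted apart, whole embryos gave −2.49 (SE 0.48, adjusted p = 0.00238, limma), from 0.72, 1.29 and 1.61 to −1.96, −1.64 and −0.26. In this comparison 3 of the 5 genes fell and 1 rose, and 36.5% of all genes passed in either direction. Mll2 kept its call with any 1 of the 6 embryos left out, while Mll1 lost it without any 1 of the 3 4-cell embryos.

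Mll2 then came back in part. Values at the 16-cell stage ran from −2.50 to 0.38 with a median of −0.95, and those at the 32-cell stage from −0.96 to 1.58 with a median of 0.44. The rise between these stages was 1.40 (SE 0.38, adjusted p = 0.00974, limma), against a median of 0.16 over all genes, and each of the 7 embryos of the 32-cell stage lay above both of the 16-cell stage. The call rests on having both 16-cell embryos in the fit, since without embryo 4 or embryo 5 the difference was 1.36 or 1.44 with adjusted p of 0.164 or 0.0742. In whole embryos it was 0.44 and did not pass (95% interval −0.62 to 1.50, adjusted p = 0.516). On the raw Ct scale it was −0.57, where the median of all genes was −1.81.

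Setd1a, the catalytic subunit of a complex that methylates H3K4 broadly, took nearly the same course as Mll2 with a smaller range. It was detected in all 168 samples, with values from 1.20 to 2.30 in MII oocytes (median 2.18), from 1.00 to 2.27 in zygotes (median 1.89) and from 0.60 to 3.18 at the 2-cell stage (median 1.96). The 3 groups overlapped. The difference was −0.25 between MII oocytes and zygotes (adjusted p = 0.494) and 0.04 between zygotes and the 2-cell stage (adjusted p = 0.827), neither of which passed. It ranged from 0.74 to 1.92 at the 4-cell stage (median 1.10), a fall of 0.65 (SE 0.23, adjusted p = 0.0280, limma). This call was lost without Ube2e1 (−0.46, adjusted p = 0.125), with the embryo as a random block (−0.66, adjusted p = 0.0549) and with scaling to the median of genes detected in every sample (−0.49, adjusted p = 0.0609), and the raw Ct gave 0.63. In whole embryos 0 of the 5 genes passed at this step, beside 0.641% of all genes.

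Between 4-cell and 8-cell units Setd1a fell by 1.19 (SE 0.24, adjusted p = 3.91e-05) to values from −1.12 to 1.17 with a median of 0.07. Single samples of the 2 stages overlapped, but the means of the 6 and 7 embryos did not. In whole embryos the fall was 1.32 (SE 0.40, adjusted p = 0.0258), a call lost without 4-cell embryo 2 (−0.99) or 8-cell embryo 1 or 2 (−1.25 and −1.22), with adjusted p of 0.0815 to 0.0962. Setd1a ranged from −1.19 to 1.36 at the 16-cell stage (median 0.28) and from −0.58 to 1.93 at the 32-cell stage (median 1.02). The difference of 0.65 between them did not pass (adjusted p = 0.235), although each of the 7 embryos lay above both 16-cell embryos. Over the 58 units the levels of Mll2 and Setd1a had a Pearson correlation of 0.87, given as a description since the units share stages and control genes.

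Setd1b, the paralog of Setd1a, fell earlier. It ranged from −0.05 to 1.16 in MII oocytes with a median of 0.50 and from −0.26 to 1.00 in zygotes with a median of 0.76. At the 2-cell stage it ranged from −2.37 to 0.38 with a median of −1.31, a fall of 1.71 (SE 0.29, adjusted p = 5.84e-07, limma) where the median gene changed by −0.33. This was the 1 gene of the 5 that passed at this step, at which 68.6% of all genes passed. The control genes changed their Ct from 12.9 to 16.5 over the same step, more than at any other, and their part in the difference was not tested.

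After this drop the medians of Setd1b were −2.05 (4-cell), −1.53 (8-cell), −1.52 (16-cell) and −0.64 (32-cell), with values from −3.71 to −0.25, from −5.92 to −0.75, from −4.26 to −0.24 and from −11.98 to 0.56. No step after the 2-cell stage passed over these units, the difference of −0.71 between the 2-cell and 4-cell stages included (adjusted p = 0.117). The lowest value is the only sample of the 168 without detected Setd1b, a 32-cell sample of embryo 1. In whole embryos Setd1b was −0.93, −0.55 and −0.47 in 16-cell and 0.12, 0.32 and 0.55 in 32-cell embryos. These did not overlap, and the rise of 0.98 (SE 0.34, adjusted p = 0.0477, limma) was the only one of the 5 called there, beside 32.7% of all genes. Leaving out any 1 of the 6 whole embryos ended this call.

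Ash2l, the shared core subunit, had its changes upward, relative to the control genes. It was detected in all 168 samples and ranged from −1.35 to −0.01 in MII oocytes (median −1.04), from −1.73 to −0.20 in zygotes (median −0.99) and from −2.26 to 0.11 at the 2-cell stage (median −0.88). The 4-cell stage, from −1.60 to −0.35 with a median of −1.04, overlapped with all of these, and no step up to it passed. At the 8-cell stage values ran from −1.50 to 0.79 with a median of −0.43. Ash2l rose by 0.65 (SE 0.24, adjusted p = 0.0217, limma) at the step at which Mll1, Mll2 and Setd1a fell. In whole embryos the rise was 0.91 (SE 0.28, adjusted p = 0.0280), a call lost without 4-cell embryo 2 or 3 or 8-cell embryo 1 or 3 (0.74 to 0.87, adjusted p of 0.0794 to 0.0951).

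The larger rise of Ash2l came with the 16-cell stage, where the values ran from 0.47 to 2.74 with a median of 1.94. The difference to the 8-cell stage was 2.15 (SE 0.35, adjusted p = 3.24e-06, limma), and no 8-cell unit reached either 16-cell embryo. In whole embryos it was 2.28 (SE 0.28, adjusted p = 0.000148), from −0.26, 0.21 and 0.47 to 2.16, 2.52 and 2.57. Mll1 and Ash2l were the 2 genes of the 5 that passed at this step, both upward, in either set of embryos. Of all genes 19.9% passed upward among the units and 16.0% among whole embryos. On the scale of the deposited normalised table, which uses other control genes, the difference of Ash2l was 0.28 (adjusted p = 0.636) while the median of all genes was −1.55. The 32-cell stage, from 0.32 to 2.82 with a median of 1.63, overlapped with the 16-cell stage.

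**Figure D3:**
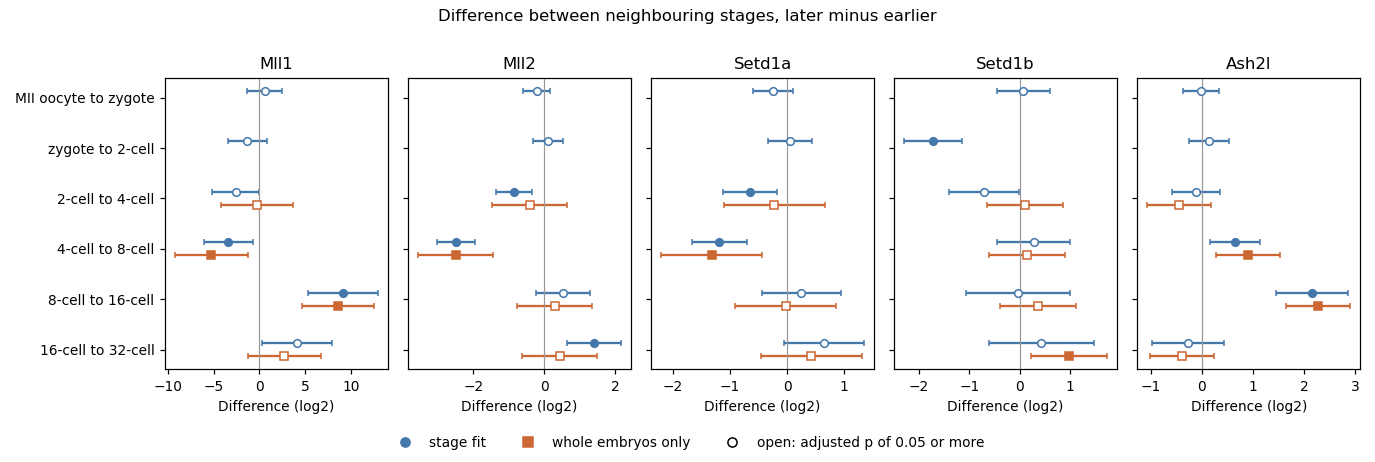
Log2 differences between neighbouring stages, later minus earlier (x axis), for each step (y axis) and gene, with 95% intervals, from all oocytes and embryos (circles) and from whole embryos alone (squares), where filled symbols passed the test and scales differ between panels. Mll2 (−2.48) and Setd1a (−1.19) fall at the step to the 8-cell stage, and Mll1 (9.11) and Ash2l (2.15) rise at the step to the 16-cell stage, where Ash2l was at 0.28 and the median gene at −1.55 on the scale of the deposited table.

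Between MII oocytes and the 9 embryos of the 16- and 32-cell stages all 5 genes passed the test, at a comparison in which 84.6% of all genes passed. Mll1 rose by 5.61 (SE 1.07, adjusted p = 4.88e-06) and Ash2l by 2.60 (SE 0.20, adjusted p = 1.44e-17). Mll2 fell by 1.80 (SE 0.21, adjusted p = 7.51e-11), Setd1b by 1.76 (SE 0.29, adjusted p = 2.69e-07) and Setd1a by 1.30 (SE 0.19, adjusted p = 3.63e-08, all limma). The median gene changed by −0.35. The whole embryos outside this comparison differed from it for Setd1b: those of the 32-cell stage, at 0.12, 0.32 and 0.55, lay within the range of MII oocytes (−0.05 to 1.16), as did the isolated TE at 0.54, while those of the 16-cell stage, at −0.93 to −0.47, and the isolated ICM at −0.73 lay below it. On the scale of the deposited table, where the median gene changed by −3.91, Ash2l turned to −0.96 and Mll1 to 2.05 without passing (adjusted p = 0.0637), so the rise of both holds relative to Hnrnpr, Ssu72 and Ube2e1. On the raw Ct scale Mll1 was 1.31 and Ash2l −1.70, with a median gene of −4.65.

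The difference between paralogs within a sample does not depend on the control genes. Mll1 minus Mll2 averaged −8.09 ± 1.50 (SD) in the 11 MII oocytes, from −10.31 to −5.12, and −0.68 ± 1.38 in the 9 late embryos, from −4.04 to 0.41. The groups did not overlap and differed by 7.41 (exact two-sided permutation test, p = 1.19e-05, the smallest it can give). The opposite courses of Mll1 and Mll2 were known when this pair was chosen. By stage the mean was −7.31 in zygotes, −8.74 in 2-cell, −13.73 in 3-cell, −10.48 in 4-cell, −11.39 in 8-cell, −2.82 in 16-cell and −0.07 in 32-cell units, with undetected Mll1 entering at its floor.

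Setd1a minus Setd1b averaged 1.57 ± 0.26 (SD) in the 11 MII oocytes, from 0.95 to 1.78, and 2.04 ± 0.70 in the 9 late embryos, from 1.19 to 3.33. These overlapped, and the difference of 0.47 did not pass (exact two-sided permutation test, p = 0.0605). This pair too was chosen with earlier results of these data known. By stage the mean was 1.25 in zygotes, 3.00 in 2-cell, 3.39 in 3-cell, 3.05 in 4-cell, 1.59 in 8-cell, 1.87 in 16-cell and 2.09 in 32-cell units. It was highest from the 2-cell to the 4-cell stage, after the fall of Setd1b and before the larger fall of Setd1a.

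In ESC RNA the normalised level was −0.33 ± 0.44 for Mll1, −0.32 ± 0.44 for Mll2, 1.30 ± 0.26 for Setd1a, −0.98 ± 0.40 for Setd1b and 2.01 ± 0.42 for Ash2l (SD over 10 reactions of diluted RNA, which are technical). The 32-cell embryos had means of 0.35 ± 0.41, 0.42 ± 0.27, 0.92 ± 0.29, −1.16 ± 0.74 and 1.59 ± 0.23 (SD, n = 7). For Mll1 the ESC reactions overlapped with the 32-cell embryos, and all of them lay above all 11 MII oocytes. The Ct moved by −1.24 to −0.98 cycles per doubling of RNA over the 5 assays. A sample of isolated inner cell mass (ICM) and one of trophectoderm (TE), 1 each, were not tested. In this order they held Mll1 at −0.62 and −0.16, Mll2 at −0.08 and −0.02, Setd1a at 1.29 and 0.78 and Ash2l at 1.57 and 1.96.

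**Figure D4:**
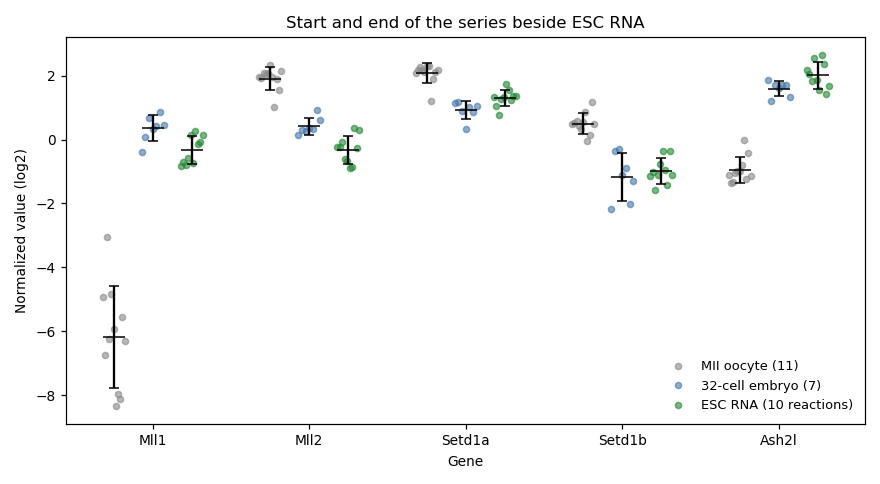
Log2 levels (y axis) of the 5 genes (x axis) in 11 MII oocytes, 7 embryos of the 32-cell stage and 10 reactions of ESC RNA, with a point per oocyte, embryo mean or reaction, and the mean with SD in black. Mll1 and Ash2l are higher and Mll2, Setd1a and Setd1b lower in 32-cell embryos than in oocytes on this scale, whereas relative to the control genes of the deposited table Ash2l was lower in late embryos (−0.96).

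Cells of the 16- and 32-cell stages begin to separate into ICM and TE, and the 76 samples of these stages were placed on a score, the mean level of 12 ICM genes minus that of 8 TE genes. The study had defined such core genes by clustering their correlations in its 16- and 32-cell samples. The score ran from −7.11 to 7.74 in 16-cell and from −8.71 to 10.12 in 32-cell samples. Slopes were fitted within each of the 9 embryos. Mll2 rose with the score by 0.0525 per unit (SE 0.0136, adjusted p = 0.0166, limma), with a positive slope in 6 of 9 embryos, and was the 1 gene of the 5 that passed, beside 29.5% of all genes. That share includes the score genes, which were picked for correlating with each other in these samples, so it is no neutral background. Its slopes were 0.0394, 0.0479, 0.0697, −0.0930, −0.0315, 0.0950 and 0.0573 in embryos 1, 8, 9, 10, 11, 12 and 13 of the 32-cell stage and −0.00437 and 0.101 in embryos 4 and 5 of the 16-cell stage. The call was lost with single cells alone, with equal weights for the embryos, on the scales of the raw Ct and of the deposited table, and with scaling to the median of genes detected in every sample (0.0276, adjusted p = 0.0804). The isolated ICM and TE, 1 sample each, held Mll2 at similar levels, −0.08 and −0.02.

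Ash2l had a slope of −0.0269 (adjusted p = 0.222), negative in 8 of 9 embryos, and with scaling to that median it was −0.0517 and passed (adjusted p = 0.0189). The slopes of Mll1, Setd1a and Setd1b were 0.0604, 0.0238 and 0.0134, with adjusted p of 0.249, 0.287 and 0.649. Slopes of the 16-cell and 32-cell embryos were not shown to differ for any of the 5 genes (adjusted p of 0.343 to 0.959, limma). Over the 76 samples the Spearman correlation with the score was 0.61 for Mll2, 0.45 for Mll1, 0.33 for Setd1a, 0.05 for Setd1b and −0.35 for Ash2l. After each embryo's mean was removed, these were 0.40, 0.17, 0.22, 0.02 and −0.28. The mean Ct of the control genes itself had a correlation of 0.38 with the score, and of 0.15 after centring, and its part in these values was not tested.

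**Figure D5:**
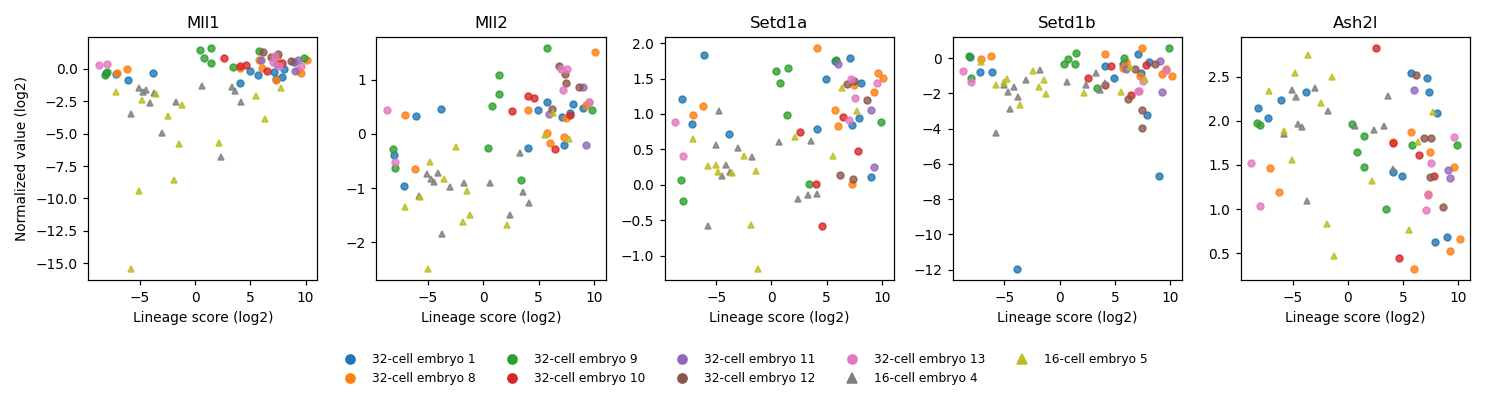
Log2 levels of the 5 genes (y axis) against the lineage score, ICM genes minus TE genes in log2 units (x axis), in 76 samples of the 16-cell (triangles) and 32-cell (circles) stages, coloured by embryo. Mll2 is higher where the score is higher (slope 0.0525 within embryos), with wide scatter in every panel.

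Among single cells and pools of 1 embryo of the 32-cell stage, the median SD was 0.43 for Mll1, 0.54 for Mll2, 0.62 for Setd1a, 0.72 for Setd1b and 0.55 for Ash2l. The largest, 3.64, was that of Setd1b in the embryo with the undetected sample. Over the 76 samples Mll1 and Mll2 had a Spearman correlation of 0.75, which was 0.39 after each embryo's mean was removed. For Mll2 and Setd1a it was 0.56 and 0.38, and for Setd1a and Setd1b 0.52 and 0.35. These samples share control genes and embryos. Across the 58 units Mll1 and Ash2l had a Pearson correlation of 0.50, while Ash2l with Setd1a gave −0.50 and with Mll2 −0.48.

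The genes whose levels over the 58 units were most like those of each of the 5 were found by Pearson correlation. For Mll2 these were Whsc1, an H3K36 methyltransferase (0.92), and Suz12, a core subunit of the Polycomb complex PRC2 (0.91). The same 2 genes were nearest to Setd1a, with 0.92 for both. Setd1b was nearest to ASF1A, a histone chaperone (0.85), and Phf8, a histone demethylase (0.83). Ash2l was nearest to Lrpap1 (0.77) and Smyd1 (0.76), and Mll1 to Setd5 (0.69) and Ash1l (0.67). Smyd1 was undetected in MII oocytes and zygotes, so its means there, −17.08 and −17.07, are floor values. The median over all other genes was 0.14 for Mll1, 0.28 for Mll2, 0.31 for Setd1a, 0.34 for Setd1b and 0.01 for Ash2l. All of these values share the stages and the control genes.

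Of the other H3K4 methyltransferase and complex genes, Mll3, Mll5, Cxxc1, Kdm6a, Ash1l and Setd7 were measured. Between zygotes and the 2-cell stage all 6 passed, 2 upward and 4 downward, against 1 of the 5 genes described above and 68.6% of all genes. Their median difference was −1.08, that of the 5 genes 0.04 and that of all genes −0.33. In the steps after this, 1 fell between the 2- and 4-cell stages (32.7% of all genes passed), 0 passed between the 4- and 8-cell stages (49.4%), and 1 passed between the 8- and 16-cell stages (28.2% in either direction), Ash1l, which rose by 1.43 (adjusted p = 0.0136, limma). Between MII oocytes and late embryos 1 rose and 3 fell, where 84.6% of all genes passed. Setd7 rose by 3.28, while Kdm6a, an H3K27 demethylase that belongs to MLL complexes, fell by 3.09, Cxxc1, the CpG-binding subunit of the SETD1 complexes, fell by 1.85, and Ash1l fell by 0.56.

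Of the 8 H3K4 demethylases, 4 rose and 3 fell between zygotes and the 2-cell stage, where 68.6% of all genes passed, and 3 fell between the 4- and 8-cell stages, where 49.4% passed. Of the steps beside these, 1 rose between the 2- and 4-cell stages, where 32.7% of all genes passed. Between the 8- and 16-cell stages 1 fell, where 28.2% of all genes passed in either direction. Between MII oocytes and late embryos 4 rose and 2 fell, beside 84.6% of all genes. The median difference of the 8 was 2.11, against −1.30 for the 5 genes and −0.35 for all genes. These counts include Kdm5d, which was called from zygote to 2-cell (8.16), from 4-cell to 8-cell (−8.89) and here (6.41). In whole embryos, 3 per stage, it differed by −13.8 from 4-cell to 8-cell and by 14.8 from 16-cell to 32-cell. The sex of the embryos entered no fit, so its differences are not read as changes with stage, and the part of sex in them was not tested. With the lineage score Kdm5b rose by 0.0563 and Kdm1b fell by 0.326 per unit, both with an adjusted p of 0.0154 (limma), where 29.5% of all genes, the score genes included, passed. These shares of the list are not read as particular to it. The members of the 2 enzyme classes thus passed in both directions, and no test of 1 list against another was made.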

How the data were processed

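Transcripts were measured by RT-qPCR on microfluidic chips after preamplification with all 192 primer pairs. The authors deposited Ct values for 189 samples as given by the instrument software, a score in PCR cycles that falls as transcript rises, with 30 entered where nothing was detected. Of these values 6 lay above 30, the highest at 33.5, and were kept. The authors also deposited a normalised log2 table, whose values proved to be relative to Gapdh, Hspa8 and Lmnb1 (largest difference 1.03e-08), not to the control genes of the methods, from which it differs by up to 7.43. It served as an alternative. Such qPCR values have no read depth, so the control Ct and the number of undetected genes stand in for it.

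Levels were computed as 30 minus Ct, minus the mean of this quantity for Hnrnpr, Ssu72 and Ube2e1. Values were averaged per oocyte or embryo (58 units) and stages compared with limma 3.58.1 (lmFit and eBayes, R 4.3.3), with all stages in 1 fit and Benjamini-Hochberg adjustment over 156 genes. A gene was called at an adjusted p below 0.05. Whole embryos were fitted apart. Lineage slopes, 1 per embryo and gene, were tested against 0 with limma, weighted by the spread of the score. Within-sample differences between paralogs were compared by exact permutation (scipy 1.17.1). The code was tested on simulated data. Samples outside the study set, 3 of them of the same stages, entered only where named. The assays that failed (36) were left out except in an alternative.

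The genes named are the 5 genes, the control genes and, for each of the 5, the 2 passed genes with the highest Pearson correlation over the 58 units. Other genes appear as lists, with values for some list members that were called and, for stage markers, Dazl, Nanog, Sox2 and Gata3, chosen after their values were seen. The 5 genes and the lists were chosen with earlier results of these data known. Labels do not say whether samples of a stage came from separate collections, so p-values measure the spread between these oocytes and embryos. Alternatives were the scaling, each control gene, the handling of undetected genes, the samples included, blocks and leaving out 1 oocyte or embryo at a time. The Mll2 assay cannot be assigned to Kmt2b or Kmt2d from its sequence here. Upstream sequences are from RefSeq, GRCm38.p6.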

Additional observations from a re-analysis of the deposited data

Results flagged for a closer look

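In 20 groups of embryo units, 3 units stood apart from the rest of their group by Dixon's test, where chance gives about 1 group in 20. Oocytes are not embryo units, and 1 MII oocyte that is not among the 3 also lay apart in Setd1a, at 1.20 beside 1.90 to 2.295 in the others. In 1 embryo of the 2-cell stage Mll1 was at −12.07, with both blastomeres undetected, while the other units of the stage lay between −7.96 and −4.55. In another unit of the 2-cell stage, 1 sample labelled as a blastomere, Setd1b was at −0.074, while the others lay between −1.54 and −0.88. In embryo 10 of the 32-cell stage Setd1a was at 0.32, while the other 6 embryos lay between 0.86 and 1.17.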

How the results depend on the processing

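On the raw Ct scale the median of all genes was −3.33 from zygote to 2-cell, 0.85 from 2-cell to 4-cell, −1.04 from 8-cell to 16-cell, −1.81 from 16-cell to 32-cell, −4.65 from MII oocytes to late embryos, and 2.79 and −2.46 in whole embryos from 8-cell to 16-cell and from 16-cell to 32-cell. Signs turned there for Mll2 (−2.89), Setd1a (−2.96) and Ash2l (−2.86) from zygote to 2-cell, Mll2 (0.44) and Setd1a (0.63) from 2-cell to 4-cell, Mll2 from 16-cell to 32-cell (−0.57) and Ash2l from MII oocytes to late embryos (−1.70). In whole embryos they turned for Setd1a from 8-cell to 16-cell (2.39) and for Mll2 (−1.47), Setd1a (−1.48) and Setd1b (−0.93) from 16-cell to 32-cell. On the deposited scale, with all-gene medians of −1.55, −3.91 and, in whole embryos, −1.78, signs turned for Mll2 (−1.34) and Setd1a (−1.63) from 8-cell to 16-cell, Ash2l from MII oocytes to late embryos (−0.96) and, in whole embryos, Mll2 (−1.85) and Setd1b (−1.79) from 8-cell to 16-cell. Without Ube2e1 among the control genes, Setd1a turned to −0.46 from zygote to 2-cell.

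The number of the 5 genes called changed as follows. From zygote to 2-cell it was 1, and 4 without Hnrnpr, 2 without Ube2e1 and 5 on the raw scale. From 2-cell to 4-cell it was 2, and 0 without Ube2e1 or on the raw scale, 1 with scaling to the median of genes detected in every sample and 4 without whole embryos. From 4-cell to 8-cell it was 4, and 1 on the raw scale and 2 without whole embryos. From 8-cell to 16-cell it was 2, and 4 on the deposited and 1 on the raw scale. From 16-cell to 32-cell it was 1, and 3 with the embryo as a random block over all samples (estimated correlation 0.0988), 3 with the replicate block, 2 with values below −10 set to −10 and 0 without either 16-cell embryo. For the lineage score it was 1, and 0 on the deposited and raw scales, with equal weights and with single cells alone; scaling to the median called Ash2l in place of Mll2. In whole embryos from 4-cell to 8-cell it was 4, and 0 on the raw scale and 1 to 4 with 1 embryo left out (1 without 4-cell embryo 2, 2 without 4-cell embryo 3 or 8-cell embryo 1). In whole embryos from 8-cell to 16-cell it was 2, and 4 on the deposited and 5 on the raw scale. In whole embryos from 16-cell to 32-cell it was 1, and 0 on the deposited scale, with the replicate block and with any of the 6 embryos left out, 2 with median scaling or the floor of −10, and 3 on the raw scale. The causes were not tested. Shares of all genes called under each alternative are not given, so these counts are not read as particular to the 5 genes.

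Samples with the same number did not deviate together (30 pairs, correlations of −0.378 to 0.407, 6 over 0.1), so the numbers give no pairing. Leaving out the 16-cell sample with 44 undetected genes, an alternative chosen after seeing the data, changed no count. Of the 37 differences without a call, 26 changed sign without being called in 57 settings. Undetected genes limit Mll1 between 2 and 8 cells, where the samples without detection give only a floor. The 16-cell stage rests on 2 embryos.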
